A study of Mus musculus with 19 samples.

Results

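The 7 Nlrp genes Nlrp5, Nlrp14, Nlrp4a, Nlrp4b, Nlrp4c, Nlrp4f and Nlrp9a were followed through the development of the mouse ovary. They are 7 of the 18194 genes that had a probe set annotated to 1 gene alone. They were chosen from these arrays with their stage profiles known, and the mean signal of each was highest at postnatal day (pnd) 2. Their rise to pnd2 is therefore given as a description, without a test. Each gene had 1 single-gene probe set: 1418882_at for Nlrp5, 1429409_at for Nlrp14, 1438077_at for Nlrp4a, 1434527_at for Nlrp4b, 1450000_at for Nlrp4c, 1436794_at for Nlrp4f and 1456185_at for Nlrp9a. No second probe set checks any of them.

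RNA came from wild-type female CD-1 mice, an outbred strain, and was amplified in 2 rounds before hybridization to Affymetrix Mouse430_2 arrays. Ovaries were taken on gestation days (gd) 11, 12, 14, 16 and 18 and at pnd2, with 3 arrays for each of the 6 stages. The sample labels call the gd11, gd12 and gd14 samples pools of 3, while the series text gives 1 animal per sample; gd11 samples 18 and 19 shared a dam, and gd11 samples 16 and 18 included the mesonephros, the embryonic kidney beside the gonad. A single array of whole newborn animals, a mixed-sex pool at pnd 0.5, served as a reference.

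NLRP proteins carry a nucleotide-binding NACHT domain and leucine-rich repeats, and some members of the wider NOD-like receptor (NLR) family are innate immune sensors that assemble inflammasomes. A branch of the family is instead transcribed mainly in germ cells. Its best-known gene is Nlrp5, also called Mater, a maternal-effect gene whose product accumulates in the growing oocyte as part of the subcortical maternal complex and is needed by the early embryo. Around birth the germ cell nests of the mouse ovary break up, oocytes are enclosed in primordial follicles, and the first oocytes begin to grow.

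Signals are array intensities in arbitrary units, scaled to the same trimmed mean on every array. The level of one probe set cannot be set against that of another, so genes are compared here only by their own course. A signal above 116.05, the median of all values of the ovary arrays, is called detected below. Log2 changes are on the scale of log2(signal + 31), which understates changes of low signals, and are given ± SE of the limma fit over 26431 probe sets. A change was called at a Benjamini-Hochberg adjusted p under 0.05 over all of them.

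One array stood apart. On gd16 sample 7 the 3 probe sets of Xist, the RNA of the inactive X chromosome, reached at most 136, whereas each of them gave at least 918 on every other ovary array. The 9 probe sets of the Y-linked genes Eif2s3y, Kdm5d and Uty reached at most 64.4 on this array and 84.4 on any ovary array. Tests that rest on gd16 are also given without it. RNA quality, read from Gapdh as its 3′ signal over its 5′ signal, also differed by stage: the ratio lay between 2.99 and 3.28 on the gd11 arrays and between 5.07 and 5.41 on those of pnd2. Its part in the results was not tested. Median scaling lowered the median change of all probe sets by 0.11 from gd11 to gd12, by 0.17 from gd14 to gd16 and by 0.14 from gd11 to pnd2.

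Upstream sequences were available for 6 of the 7 genes, with 9 annotated starts (RefSeq, build GRCm38.p6). In the RefSeq annotation, 6 of the 7 genes lie on chromosome 7 and Nlrp4f lies on chromosome 13. On chromosome 7, Nlrp9c, Nlrp4a and Nlrp9a follow each other directly among protein-coding genes, and Nlrp4e is next to Nlrp5. The sequences of Nlrp4a, Nlrp4b and Nlrp4c are shown first because each had another of the 3 as its most alike promoter among those of all other genes. Over 249 to 304 aligned columns, 74.1% to 75.9% of the columns were identical. The stretches below, written 5′ to 3′ on the plus strand, run from chr7:26435462-26435581 (Nlrp4a), chr7:10687637-10687756 (Nlrp4b) and chr7:6045041-6045160 (Nlrp4c). Capitals mark a shared block of 12 bases, chosen after the sequences were seen.
Nlrp4a: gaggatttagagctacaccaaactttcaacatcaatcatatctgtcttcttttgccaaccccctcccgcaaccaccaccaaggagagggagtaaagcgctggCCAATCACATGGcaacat
Nlrp4b: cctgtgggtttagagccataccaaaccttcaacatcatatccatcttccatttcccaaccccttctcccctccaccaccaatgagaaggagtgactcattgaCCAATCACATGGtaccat
Nlrp4c: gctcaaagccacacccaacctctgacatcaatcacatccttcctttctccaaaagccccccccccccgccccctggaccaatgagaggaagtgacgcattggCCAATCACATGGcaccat

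The block ends 39 bases before the start of Nlrp4a at position 26435614, 43 and 71 bases before the starts of Nlrp4b and 7 bases before that of Nlrp4c. On either strand it was found in 7 of 32851 promoters (0.0213%) of 6 genes, the others being Dcxr, Oscp1 and Tmem52b. The other annotated start of Nlrp4a, at position 26435113, had no such likeness to the other members. Genes with these like promoters differed in their calls: Nlrp4b was called higher at gd18, whereas Nlrp4a and Nlrp4c were not. The difference between them was not tested. At gd18 Nlrp4b, Nlrp4a and Nlrp4c stood at 9.04%, 8.69% and 13.5% of their own pnd2 means. No gd18 array of Nlrp4a or Nlrp4c was detected, so no difference in course is read from these shares.

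Nlrp9a and the nearby Nlrp9c are shown next because their upstream sequences were nearly the same. Over the whole alignment of their promoters 95.2% of 227 columns were identical. Nlrp9c was detected on no ovary array, and Nlrp9a on 2 of 3 arrays at pnd2 only. The levels of different probe sets cannot be compared, so no difference between the genes is read from this. In the aligned stretch of 120 bases, chr7:26534903-26535022 on the plus strand for Nlrp9a and chr7:26403745-26403864 on the minus strand for Nlrp9c, 2 bases differed and are in capitals.
Nlrp9a: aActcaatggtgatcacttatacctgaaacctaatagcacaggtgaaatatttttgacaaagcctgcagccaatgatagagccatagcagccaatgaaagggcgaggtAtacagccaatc
Nlrp9c: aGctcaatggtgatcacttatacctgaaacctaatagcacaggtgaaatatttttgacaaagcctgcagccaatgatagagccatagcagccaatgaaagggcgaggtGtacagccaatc

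The stretch ends directly before the start of Nlrp9a and 45 bases before that of Nlrp9c. The Nlrp9c probe set gave 0.49 to 52.9 on all 18 ovary arrays. Its pnd2 arrays (31.15 to 35.17) lay above those of gd18 (1.71 to 20.18), though not above every fetal array.

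Nlrp5 and Nlrp4f are shown because they were the first of the 7 to lie above 116.05 on all 3 arrays of a stage. Capitals mark each match to CANNTG, the E-box letters bound by basic helix-loop-helix factors, a class that includes the oocyte factors Figla, Sohlh1 and Sohlh2. The stretches are the 250 bases before a start, chr7:23385639-23385888 on the plus strand for Nlrp5 and chr13:65205717-65205966 on the minus strand for Nlrp4f.
Nlrp5: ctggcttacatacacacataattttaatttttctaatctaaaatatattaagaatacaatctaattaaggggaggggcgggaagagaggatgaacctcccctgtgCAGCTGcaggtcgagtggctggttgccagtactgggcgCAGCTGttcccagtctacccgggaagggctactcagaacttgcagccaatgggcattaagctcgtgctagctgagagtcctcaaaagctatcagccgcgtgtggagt
Nlrp4f: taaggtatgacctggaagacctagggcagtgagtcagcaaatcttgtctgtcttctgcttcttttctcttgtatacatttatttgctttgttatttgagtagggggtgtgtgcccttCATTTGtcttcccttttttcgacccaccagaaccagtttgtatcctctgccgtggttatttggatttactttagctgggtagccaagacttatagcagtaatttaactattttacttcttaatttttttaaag

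Promoters here are windows of 300 bases, 250 before and 50 after a start, searched on both strands. CANNTG occurred at 9 of 9 starts of the members and in 72.3% of all promoters. Its variant CAGGTG occurred at 1 start (20.2% of all promoters) and CACGTG, also a variant, at 0 of 9 (7.15%). The homeobox letters TAATTG occurred at 1 start (8.0%) and TAATTA at 2 (5.29%), the TATA box letters TATAAA at 1 (13.6%) and the GC box letters GGGCGG at 2 (35.7%). The far end of the Nlrp4f window, 250 to 166 bases before its start, aligned to the bases around a start of Nlrp4b with 83.3% identity over 84 columns. Neither start of Nlrp5 had another member among its 5 most alike promoters.

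Against the common cutoff of 116.05 the genes were not all detected from the same stage. Levels of different probe sets cannot be compared, and a probe set of weaker signal can pass the cutoff later. The stages below therefore give no order of onset among the genes. All 3 arrays lay above 116.05 from gd18 for Nlrp5 and Nlrp4f, and only at pnd2 for Nlrp14, Nlrp4a, Nlrp4b and Nlrp4c. Nlrp9a never reached this level on all 3 arrays and passed it on 2 of 3 at pnd2. The first called rise before birth came at gd12 for Nlrp14, at gd16 for Nlrp5 and at gd18 for Nlrp4f and Nlrp4b. Nlrp4a, Nlrp4c and Nlrp9a had no called rise before birth.

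**Figure D1:**
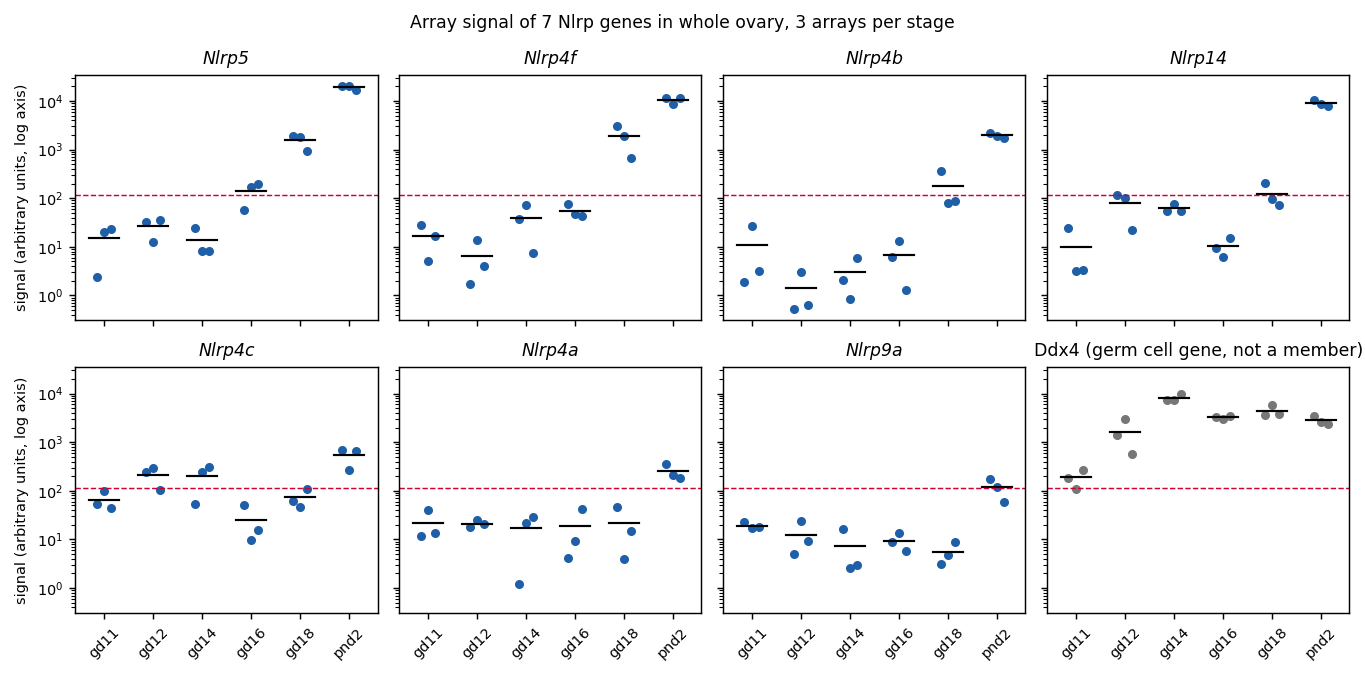
Signal of each of the 7 Nlrp genes and of the germ cell gene Ddx4 on a log axis, by stage; points are the 3 arrays of a stage, bars their mean, and the dashed line the median of all ovary values (116.05). Every gene of the family is highest at pnd2, and Nlrp5 and Nlrp4f are the only members with all 3 gd18 arrays above the line.

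Nlrp5 was at background through gd14 and then climbed at each of the next steps. Its signal was 2.35, 20.2 and 23.1 on the gd11 arrays, 32.0, 12.6 and 35.9 at gd12, and 24.1, 8.3 and 8.37 at gd14. At gd16 it was 56.0, 168 and 196, at gd18 1882, 1799 and 938, and at pnd2 20627, 20367 and 17103. All arrays of gd16 lay above those of gd14, all of gd18 above those of gd16 and all of pnd2 above those of gd18, while gd11, gd12 and gd14 overlapped. The change from gd14 to gd16 was 1.84 ± 0.32 (adjusted p = 0.000751), and 2.27 (adjusted p = 0.000129) without gd16 sample 7, the lowest of the 3. From gd16 to gd18 it was 3.25 ± 0.32 (adjusted p = 1.88e-05), and 2.82 without gd16 sample 7.

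The further change of Nlrp5 to pnd2 was 3.69 ± 0.32. From gd11 to pnd2 its mean rose from 15.2 ± 11.2 to 19366 ± 1964 (SD, n = 3). This change of 8.74 ± 0.32 ranked 1 among the rises of all 26431 probe sets. Since the genes were chosen with this rise known, nothing is read from the rank.

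Nlrp4f, a further gene of the Nlrp4 group whose product has been described with the subcortical maternal complex, appeared abruptly at gd18. It gave 27.9, 5.1 and 16.7 at gd11, 1.73, 13.8 and 4.01 at gd12, 36.6, 71.6 and 7.32 at gd14, and 75.7, 46.7 and 42.9 at gd16. At gd18 it gave 3079, 1880 and 667, and at pnd2 11718, 8505 and 11296. The 4 earlier stages were all below 116.05 and each overlapped the next, whereas gd18 and pnd2 were each separate from the stage before. From gd16 to gd18 the change was 4.24 ± 0.41 (adjusted p = 1.46e-05), which ranked 1 among all rises of that step and was 4.41 without gd16 sample 7. The change to pnd2 was 2.70 ± 0.41.

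Nlrp4b, of the rodent Nlrp4 group on chromosome 7, had its first called rise at gd18. Its signal was 1.86, 27.2 and 3.22 at gd11, and 0.53 to 13.2 on the 9 arrays of gd12, gd14 and gd16. It was 367, 78.6 and 88.6 at gd18 and 2203, 1934 and 1773 at pnd2. At gd18 sample 4 alone was above 116.05, but all 3 arrays lay above those of gd16. The change to gd18 was 2.21 ± 0.38 (adjusted p = 0.00155), and 2.20 (adjusted p = 0.00725) without gd16 sample 7. The change to pnd2 was 3.52 ± 0.38.

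Nlrp14, which is transcribed in oocytes and in male germ cells, had a low early signal, a trough at gd16 and a steep rise across birth. On the gd11 arrays it was 23.9, 3.15 and 3.27, at gd12 115, 99.7 and 21.9, and at gd14 53.7, 75.9 and 55.4. At gd16 it was 9.51, 6.08 and 14.98, at gd18 202, 97.6 and 71.2, and at pnd2 10272, 8612 and 7851. Up to gd16 no array passed 116.05, and the gd11 and gd12 arrays overlapped.

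From gd11 to gd12 the change of Nlrp14 was 1.32 ± 0.34 (adjusted p = 0.0335). This call was lost without gd12 sample 13 (1.05, adjusted p = 0.13), gd12 sample 14 (1.13, adjusted p = 0.174), gd11 sample 18 (1.21, adjusted p = 0.103) or gd11 sample 19 (1.21, adjusted p = 0.0993). From gd14 to gd16 Nlrp14 fell by 1.17 ± 0.34 (adjusted p = 0.0228). That call was lost without gd16 sample 7 (-1.16, adjusted p = 0.0543), gd16 sample 8 (-1.09, adjusted p = 0.0661), gd14 sample 11 (-1.06, adjusted p = 0.0777) or gd14 sample 12 (-1.21, adjusted p = 0.053), and with the pseudocount at the median, 116.05 (-0.49, adjusted p = 0.0849). The change to gd18 was 1.82 ± 0.34 (adjusted p = 0.00305), and 1.81 (adjusted p = 0.0126) without gd16 sample 7. The change to pnd2, 5.94 ± 0.34, ranked 1 among all rises across birth. Since the genes were chosen with this rise known, nothing is read from the rank.

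Nlrp4c was the only member detected on any array before gd16. It gave 53.8, 99.3 and 43.9 at gd11, 249, 296 and 102 at gd12, and 53.9, 245 and 315 at gd14. It gave 51.3, 9.6 and 15.8 at gd16, 62.8, 46.5 and 110 at gd18, and 701, 267 and 654 at pnd2. The gd12 arrays all lay above those of gd11, but the change of 1.29 ± 0.48 was not called (adjusted p = 0.144). At gd12 and at gd14 2 of 3 arrays passed 116.05, and at gd16 and gd18 none did.

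From gd14 to gd16 Nlrp4c fell by 1.90 ± 0.48 (adjusted p = 0.0102), and by 2.21 without gd16 sample 7 (adjusted p = 0.0105). Without gd14 sample 12, the highest of that stage, the call was lost (-1.51, adjusted p = 0.0665). Relative to Ddx4, a germ cell gene followed below, the call was lost too (-0.60, adjusted p = 0.315). The gd16 and gd18 arrays overlapped (0.90 ± 0.48, adjusted p = 0.274), and the change to pnd2 was 2.40 ± 0.48. By pnd2 all 3 arrays lay above those of gd18, although sample 2 was below the highest gd12 and gd14 arrays.

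Nlrp4a and Nlrp9a showed a signal only after birth. Nlrp4a was between 1.23 and 46.7 on the 15 fetal arrays and 358, 213 and 187 at pnd2, so that the groups did not overlap. Its change from gd18 was 2.45 ± 0.39. Nlrp9a, 1 of 3 rodent genes named Nlrp9, was between 2.63 and 23.5 on the 15 fetal arrays and 173, 121 and 58.1 at pnd2. Its change from gd18 was 1.94 ± 0.35, with pnd2 sample 3 below 116.05. Neither gene had a called change at any step before birth, and their fetal stages overlapped.

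**Figure D2:**
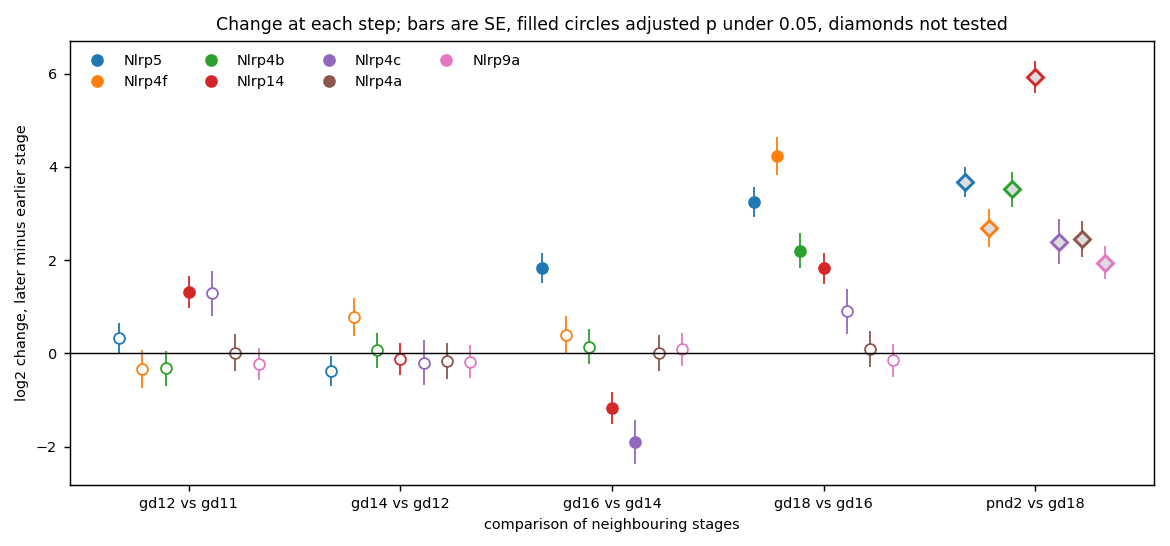
Log2 change of each of the 7 Nlrp genes from each stage to the next; bars are SE of the limma fit, and filled circles are changes called at an adjusted p under 0.05. Diamonds mark the step to pnd2, which is shown without a test. Nlrp4f has the highest point at gd18 (4.24) and Nlrp14 at pnd2 (5.94), and Nlrp14 and Nlrp4c lie below 0 at gd16.

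The F test over the 6 stages called 7 of 7 members, beside 62.8% of all probe sets tested; it includes the pnd2 values known when the genes were chosen, and nothing is read from it. At gd12 1 member was called higher (Nlrp14), beside 3.07% of all probe sets, and 0 lower, beside 1.05%. At gd14 limma called 0 members higher, beside 9.42%, and 0 lower, beside 7.05%, and 0 had an unadjusted p under 0.05. At gd16 1 was higher (Nlrp5), beside 9.68%, and 2 were lower (Nlrp14 and Nlrp4c), beside 9.1%. At gd18 4 of 7 were higher (Nlrp5, Nlrp4f, Nlrp4b and Nlrp14), with a median change over the 7 of 1.82, beside 4.58% of all probe sets and a median of -0.04, and 0 were lower, beside 3%. Without gd16 sample 7, 1 member was lower at gd16 (Nlrp4c) and 4 were still higher at gd18. At an unadjusted p under 0.05 limma likewise gave 0 lower members at gd12 and at gd18. At pnd2 the 7 had a median change of 2.70 against -0.06 for all. The 7 calls of that step, beside 6.6% of all probe sets, and those from gd11 to pnd2, beside 22.4%, were known when the genes were chosen, and nothing is read from them. The same holds for the 0 lower calls of these comparisons, beside 6.39% and 19.5%.

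Counted by arrays alone, the members whose 3 later arrays all lay above the 3 earlier ones numbered 1 at gd12 (Nlrp4c), beside 15.4% of all probe sets, and 0 at gd14, beside 17.8%. They numbered 1 at gd16 (Nlrp5), beside 20.1%, and 4 at gd18 (Nlrp5, Nlrp4f, Nlrp4b and Nlrp14), beside 11.7%. Nlrp4c thus had separate arrays but no call at gd12, and Nlrp14 a call but overlapping arrays. At pnd2 the groups were separate for all 7, beside 14.1%, as they were between gd11 and pnd2, beside 27.4%. Both were known when the genes were chosen, and nothing is read from them. Nlrp4a and Nlrp9a had a stage mean above 116.05, and so entered the tests, through pnd2 alone.

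How far each gene had come by gd18 was expressed as a percent of its own pnd2 mean. Nlrp4f had reached 17.9% on average (6.35% to 29.3% on the 3 arrays), Nlrp4b 9.04% (3.99% to 18.6%), Nlrp5 7.95% (4.84% to 9.72%) and Nlrp14 1.39% (0.80% to 2.27%). Only Nlrp4f and Nlrp5 were detected on all 3 gd18 arrays, and their ranges overlapped. Of the gd18 arrays of Nlrp4b and of Nlrp14, 2 of 3 were not above 116.05, so no order is read from their shares. For Nlrp4c (13.5%), Nlrp4a (8.69%) and Nlrp9a (4.73%) no gd18 array was above 116.05, so these shares are of a signal that was not detected. On the gd18 arrays sample 4 was the highest for 5 of the 7 genes, and on the pnd2 arrays sample 1 was the highest for 7 of 7.

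**Figure D3:**
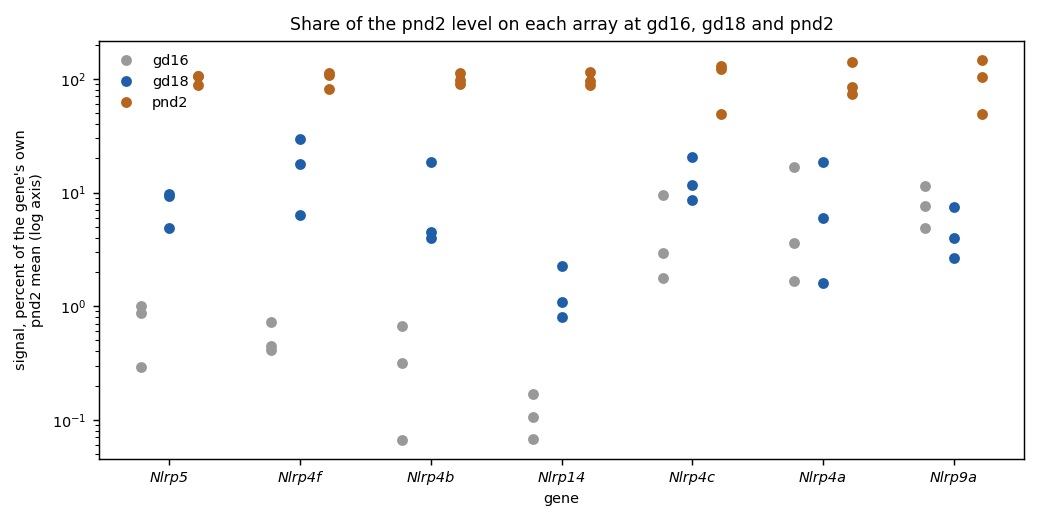
Signal on each gd16, gd18 and pnd2 array as a percent of the gene's own pnd2 mean, on a log axis. The gd18 points of Nlrp4f lie between 6.35% and 29.3% and overlap those of Nlrp5, between 4.84% and 9.72%; these are the 2 members detected on all 3 gd18 arrays.

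The arrays hold whole ovaries, in which fewer cells of a type and less RNA per cell cannot be told apart. The 6 germ cell markers (Ddx4, Dazl, Mael, Pou5f1, Dppa3 and Tex14) together gave 11072 to 13258 on the gd16 arrays (13112 to 13258 without sample 7), 14359 to 24919 on those of gd18 and 14039 to 19029 on those of pnd2. At gd12 6 of these 6 genes were called higher, and at gd14 4 were. On the gd14 arrays their sum was 24254 to 30361. At gd16 3 were called lower, Ddx4 (-1.30), Dazl (-1.54) and Tex14 (-1.39). Without gd16 sample 7 the 3 were Dazl, Pou5f1 and Tex14. Nlrp14 and Nlrp4c fell at the same step, and the part of germ cells in that was not tested. Of the 6 markers 1 was called higher at gd18 (Dppa3, also without gd16 sample 7) and 2 at pnd2 (Pou5f1 and Dppa3). Ddx4, a germ cell RNA helicase, gave 3342, 3028 and 3492 at gd16, 3654, 5810 and 3877 at gd18 and 3403, 2658 and 2357 at pnd2, and was not called at either step. Its arrays were still separate at both steps, with gd18 all above gd16 and pnd2 all below gd18. On the same arrays the signals of all 7 Nlrp genes were separate between gd18 and pnd2, which was known when the genes were chosen.

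A change relative to Ddx4, the log2 value minus that of Ddx4 on the same array, also moves with Ddx4 itself, so nearly every probe set was called at some steps. At gd12 0 members were higher relative to Ddx4, beside 0% of all probe sets, and 7 of 7 were lower, beside 99.6%. At gd14 7 of 7 were lower, beside 98.2%. At gd16 Ddx4 fell by 1.30 ± 0.38 (adjusted p = 0.0236; without gd16 sample 7 -1.31, adjusted p = 0.055). At that step 3 of 7 were higher relative to it (Nlrp5, Nlrp4f and Nlrp4b), beside 69.8% of all probe sets, so that this count is no result about the members. Nlrp4b had no called change of its own there (0.15, with no array of gd14 or gd16 above 13.2). Nlrp14 (0.13, adjusted p = 0.826) and Nlrp4c (-0.60, adjusted p = 0.315), called lower there by their own signal, were not called relative to Ddx4. Without gd16 sample 7, 2 of 7 were higher (Nlrp5 and Nlrp4f).

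At gd18, when Ddx4 was not called, 2 of 7 were higher relative to it, beside 0.053% of all probe sets. These were Nlrp5 (2.85 ± 0.54, adjusted p = 0.000359) and Nlrp4f (3.84 ± 0.55, adjusted p = 4.08e-08). Without gd16 sample 7 the call of Nlrp4f remained (3.99, adjusted p = 3.9e-06) and that of Nlrp5 was lost (2.41, adjusted p = 0.162). Nlrp4b (1.80 ± 0.62, adjusted p = 0.701) and Nlrp14 (1.42 ± 0.57, adjusted p = 0.768) were not called on this scale. From gd11 to pnd2 4 members were higher relative to Ddx4, beside 0.238%, and 3 lower (Nlrp4a, Nlrp4c and Nlrp9a), beside 98.4%; that span was known when the genes were chosen, and nothing is read from it.

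Markers of other cells were followed as summed signals. The 6 genes of growing oocytes (Zp1, Zp2, Zp3, Gdf9, Bmp15 and Oosp1) summed to between 283 and 386 at gd16 (353 to 386 without sample 7), between 587 and 1095 at gd18 and between 16569 and 29578 at pnd2. Of these, 5 were tested, 2 were higher at gd18 (Zp2 and Zp3) and 5 at pnd2. Without gd16 sample 7 the gd18 call of Zp3 was lost (0.82, adjusted p = 0.104) and that of Zp2 was not (2.42, adjusted p = 0.000612). The 5 genes of the granulosa lineage summed to between 30238 and 33695 at gd16 (32118 to 33695 without sample 7), between 22251 and 27193 at gd18 and between 18766 and 25563 at pnd2, and limma called 0 of them at either of the last steps (2 were lower at gd18 and 0 at pnd2 at an unadjusted p under 0.05). The 4 testis genes summed to 198 to 308, 273.5 to 459 and 539 to 752 at these stages, with Amh, the Sertoli cell hormone, at 14.6 or less. Of the 3 tested, 1 was higher at gd18, Ptgds, a prostaglandin D synthase (1.28, adjusted p = 0.0441; 1.84 without gd16 sample 7). At pnd2 2 were higher, Ptgds (1.18, adjusted p = 0.045) and the hedgehog ligand Dhh (1.13, adjusted p = 0.036). Macrophage sums (5 genes) were 2079 to 2820, 1893 to 2575 and 1489 to 2169, and endothelial sums (3 genes) 596 to 939, 675 to 1044 and 536 to 738. Erythroid sums, over 3 of 4 genes, were 1819 to 4023 at gd16 (1819 to 2196 without sample 7) and 31.9 to 50.7 at pnd2, and mesonephric sums, over 3 of 4 genes, were 378 to 1125 at gd11 and 79.2 to 236 at pnd2. The part of these cells in the results was not tested.

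Most partners of Nlrp5 in the subcortical maternal complex were called at pnd2 but not at gd18. Of 6 partners listed 5 were on the array, and at gd18 1 of 5 was higher: Padi6, a peptidylarginine deiminase of the oocyte lattices, gave 304, 148 and 154 against 92.2, 66.1 and 63.2 at gd16 (1.10 ± 0.31, adjusted p = 0.0335). Without gd16 sample 7 this call was lost (1.22, adjusted p = 0.0523), so that limma called 0 of 5 (3 were higher at an unadjusted p under 0.05). All 5 were higher at pnd2, with a median change of 3.49. Padi6 then gave 13106, 10044 and 7771 (5.50 ± 0.31, adjusted p = 4.51e-09). The RNA-binding scaffold protein Ooep changed by 3.99 ± 0.24, its partner Khdc3 by 3.49 ± 0.26, the co-repressor relative Tle6 by 1.90 ± 0.22 and the zinc finger protein Zbed3 by 1.55 ± 0.19. The adjusted p of these 4 was at most 3.64e-05. Some partners had earlier calls. By limma, Ooep (1.03 ± 0.24, adjusted p = 0.0198) and Tle6 (1.04 ± 0.22, adjusted p = 0.0113) were higher at gd12. Tle6 was also higher at gd16 (0.85 ± 0.22, adjusted p = 0.0125), and without gd16 sample 7 (0.88, adjusted p = 0.0292). Tle6 and Zbed3 were detected on all 3 arrays of every stage.

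Among transcription factors of the early oocyte calls were made before birth and not across it. Of 6 such genes 4 were called higher at gd18, namely the E-box factors Figla (1.43 ± 0.33, adjusted p = 0.0126) and Sohlh1 (1.53 ± 0.30, adjusted p = 0.00433) and the homeobox factors Nobox (2.02 ± 0.51, adjusted p = 0.0199) and Lhx8 (2.50 ± 0.35, adjusted p = 0.000282). Without gd16 sample 7 2 of 6 were called, Lhx8 (2.03, adjusted p = 0.00168) and Sohlh1 (1.25, adjusted p = 0.0296). Nobox, at 17.8 on that array and 366 and 246 on the other gd16 arrays, then changed by 1.10 (adjusted p = 0.0564) and Figla by 1.12 (adjusted p = 0.0717). Sohlh2 and Taf4b, called higher at gd12 and at gd14, were not called at gd18. Sohlh2 was called lower at gd16 (-1.36 ± 0.27, adjusted p = 0.0021), also without gd16 sample 7 (-1.21, adjusted p = 0.0137). Taf4b was highest at gd14, with a mean of 2781 there and 1206 at pnd2. From gd18 to pnd2 limma called 0 of the 6 higher or lower, with a median change of 0.47; at an unadjusted p under 0.05, 2 were higher and 1 was lower. Lhx8, for example, gave 5229, 6922 and 3593 at gd18 and 6258, 5464 and 7359 at pnd2, where the arrays overlapped. Nlrp5, Nlrp4f, Nlrp4b and Nlrp14 had a called rise at gd18 with and without gd16 sample 7. Their gd18 and pnd2 arrays did not overlap, beside 14.1% of all probe sets. This separation was known when the genes were chosen, and nothing is read from it.

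**Figure D4:**
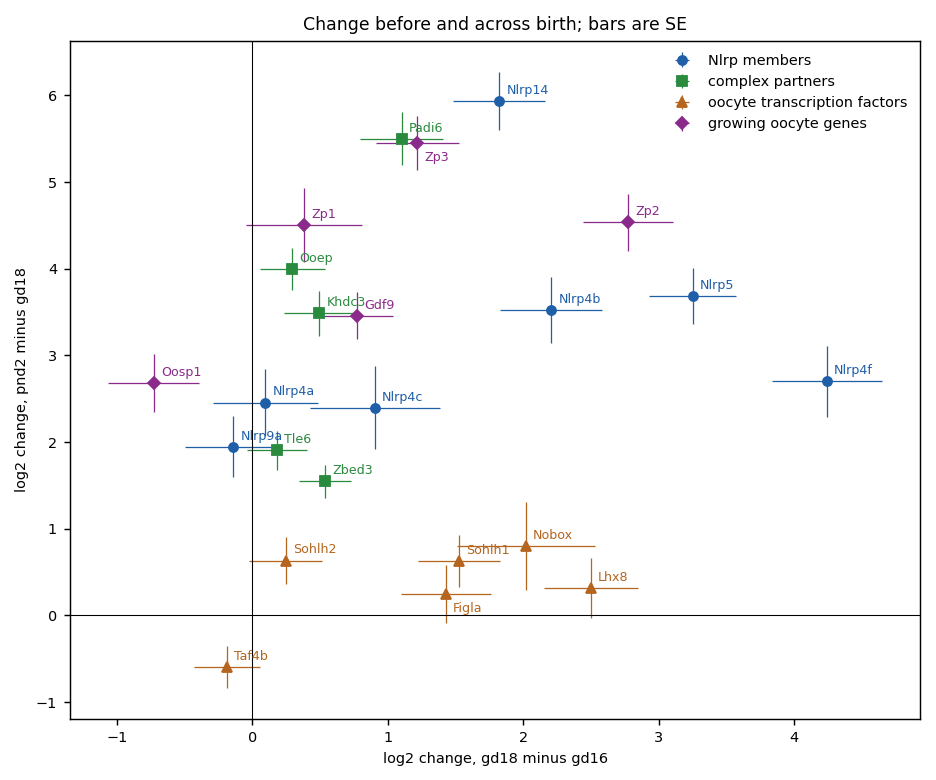
Log2 change from gd16 to gd18 (x axis) and from gd18 to pnd2 (y axis), with SE, for the 7 Nlrp genes, the partners of Nlrp5, oocyte transcription factors and genes of growing oocytes. Nlrp4f (4.24 and 2.70) and Nlrp5 (3.25 and 3.69) lie farthest to the right, and the 6 transcription factors lie below 1 on the y axis.

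Other NLR genes were mostly not detected. Of 25 listed 15 were on the array, and 12 of these had no stage mean above 116.05; the highest signal of any of the 12 on an ovary array was 118. Among these were Nlrp4e (0.86 to 71.7), Nlrp9b (3.71 to 81.5) and the inflammasome sensor Nlrp3 (12.6 to 118). Of the 12, the pnd2 arrays of Nlrp4e (31.29 to 71.74), Nlrp9c (31.15 to 35.17) and Naip6 (73.28 to 117) all lay above those of gd18. The highest gd18 arrays of these genes were at 26.26, 20.18 and 62.65. The gd18 and pnd2 arrays of the others overlapped. At gd18 limma called 0 of the 3 tested genes higher, also at an unadjusted p under 0.05. The mitochondrial Nlrx1 was higher at gd16 (0.67 ± 0.17, adjusted p = 0.0088; 0.63 without gd16 sample 7, adjusted p = 0.0315), and Nlrc5, an activator of MHC class I genes, was higher at pnd2 (1.49 ± 0.33, adjusted p = 0.0055). The Nlrc5 mean was 54.6 ± 7.7 at gd18 and 226 ± 123 at pnd2 (SD, n = 3). Nod1, a sensor of bacterial peptidoglycan, was called at no single step. Of 8 inflammasome partners 5 were tested. Gsdmd was higher at gd12 (1.07, adjusted p = 0.00299), and Pycard (0.81, adjusted p = 0.0147) and Il18 (2.35, adjusted p = 9.58e-07) at gd14. Txnip was higher at gd16 (0.95, adjusted p = 0.000655), also without gd16 sample 7 (1.04, adjusted p = 0.00132). From gd18 to pnd2 1 was higher (Txnip, 0.64 ± 0.16, adjusted p = 0.0139) and 1 lower (Il18, -0.90 ± 0.23, adjusted p = 0.0141).

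On the array of whole newborns none of the 7 genes was detected. The signals there were 15.1 for Nlrp5, 1.73 for Nlrp14, 14.2 for Nlrp4a, 1.62 for Nlrp4b, 35.8 for Nlrp4c, 6.4 for Nlrp4f and 2.11 for Nlrp9a. Ddx4 was 0.9 on this array. The reference has no replicate, and each member lay below every one of its own pnd2 ovary arrays.

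Likeness of course was measured by Pearson's r over the 18 ovary arrays on the log2 scale against 12068 other genes. The points share stages, so r mainly reflects the stage means and is given without a test. Nlrp4f was most like Trp63, the p63 factor that guards oocyte genome integrity (0.99), then Olah, a thioesterase (0.98), and Izumo1r, the egg receptor for sperm (0.97). Nlrp5 was most like the actin-binding Nexn, the kinase Stk32a and again Olah (each 0.98). Olah had means of 7.04 at gd16, 209 at gd18 and 723 at pnd2.

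Of the zona pellucida genes named by this measure, Zp2 stood beside Nlrp4b and Zp3 beside Nlrp14. Nlrp4b was most like Zp2, Bfsp1 and Pkd2l2 (each 0.98), and Nlrp14 like the phospholipase Pla2g4f (0.98), the calcium-binding Tesc (0.97) and Zp3 (0.97). Zp2, with means of 31.8 at gd16, 393 at gd18 and 9456 at pnd2, was called higher at gd18, as was Nlrp4b. Nlrp4a was most like Bco1 (0.96), Oas1h (0.95) and Elobl (0.94), and Nlrp9a like Fam241b, Cenpn and Accsl (each 0.94). Nlrp4c had the lowest values, 0.88 with each of Atp10a, Fam221a and Zfp936.

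Among the 7 genes themselves r was highest between Nlrp5 and Nlrp4f (0.97), Nlrp5 and Nlrp4b (0.96) and Nlrp4b and Nlrp4f (0.95). It was lowest between Nlrp5 and Nlrp4c (0.40) and between Nlrp4c and Nlrp4f (0.43). The pair with an early signal, Nlrp14 and Nlrp4c, had 0.74. The like promoters of Nlrp4a, Nlrp4b and Nlrp4c went with 0.88 for Nlrp4a and Nlrp4b, 0.69 for Nlrp4a and Nlrp4c and 0.56 for Nlrp4b and Nlrp4c. Whether probes of 1 Nlrp4 gene also bind RNA of another was not tested.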

How the data were processed

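Per the labels, RNA of 18 ovary arrays and 1 reference array was amplified in 2 rounds and hybridized to Mouse430_2 arrays. The deposited values are signal intensity values in linear units. The submitters' processing notes name GCOS, with which the authors made them; its settings were not given in the labels. They were used as deposited (the 2%-trimmed mean of each array is 500).

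Values were taken as log2(signal + 31), 31 being the rounded 25th percentile. Of 45101 probe sets, 26431 with a mean above 116.05 in at least 1 stage (64 controls left out) were fitted with limma 3.58.1 in R 4.3.3, with 1 term per stage, a mean-variance trend and 12 residual degrees of freedom. The model was tested on simulated data. Tests were two-sided, with Benjamini-Hochberg adjustment. The number of arrays limits the precision. Genes were named from the platform annotation, which can be old. The rule for named genes took the 7 members, the called genes of the lists (summarised where many) and, per member, the 3 genes of highest r. The members, lists, rule and tests were chosen with earlier results of these data known.

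Promoters of RefSeq build GRCm38.p6 were aligned with biopython 1.88 in Python 3.11.15. A planned comparison of protein sequences was not run. Alternatives were another pseudocount, normalization, filter or model, values relative to Ddx4, and each array left out in turn; the list genes, marker sums and values relative to Ddx4 without gd16 sample 7 were added after seeing the data.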

Additional observations from a re-analysis of the deposited data

How the results depend on the processing

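The 22 called changes of single members were tried under 664 alternatives in all. Of these, 642 kept the direction and call, 17 kept the direction and lost the call, and 5 turned. The direction and call of the changes to pnd2 were known when the genes were chosen, so nothing is read from the total. All 17 lost calls were of changes before birth, among them Nlrp14 from gd11 to gd12 (kept in 22 of 31 alternatives) and from gd14 to gd16 (24 of 30). All 5 turned relative to Ddx4: the changes of Nlrp14 from gd11 to gd12 (-1.40) and from gd14 to gd16 (0.13), and those from gd11 to pnd2 of Nlrp4a (-1.33), Nlrp4c (-1.25) and Nlrp9a (-2.26). Ddx4 itself rose from gd11 to pnd2 by 3.75. Relative to Ddx4, members called higher numbered 0 at gd12 (0% of all probe sets), 3 at gd16 (69.8%), 2 at gd18 (0.053%) and 4 from gd11 to pnd2 (0.238%). Those called lower numbered 7 at gd12 (99.6%), 7 at gd14 (98.2%) and 3 from gd11 to pnd2 (98.4%). Leaving out gd16 sample 7 as well gave 2 higher at gd16 and 1 at gd18; this and the list genes without that array were chosen after seeing the data. The 1 call at gd12 (Nlrp14) also became 0 with the pseudocount at the median, without a filter, with only the arrays compared and with gd11 samples 18 and 19 averaged; the cause was not tested. Leaving out 1 array in turn gave 0 to 1 members called higher at gd12, 0 at gd14, 1 at gd16, 4 at gd18, 7 at pnd2 and 7 from gd11 to pnd2. The calls of the last 2 comparisons were known when the genes were chosen, and nothing is read from them. No share of all probe sets is given for fits without an array. Their counts show only whether the calls of the members held. The midpoint of a course was the first stage whose mean log2 value lay at least midway between the lowest and highest stage means. Members that reached it by gd18 numbered 3 (Nlrp5, Nlrp4f and Nlrp4c), also without any 1 array, and 4 with a pseudocount of 8. Nlrp4c reached it at gd12 and later fell, and no gd18 array of Nlrp4c was detected. A filter at the 75th percentile (507) left Nlrp4a and Nlrp9a untested. No paired analysis was possible because sample numbers are not shared between stages. Signals near background limit Nlrp9a, Nlrp4a and the fetal values of all members: below 116.05 no order is read.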
